A study of Mus musculus with 6 samples.

Results

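The genes described here encode molecular chaperones, their co-chaperones and a heat shock transcription factor, measured in mouse oocytes with and without an intact Brwd1 gene. They were chosen by name, as probe sets that carry exactly 1 gene symbol beginning with Hspa, Hspb and a digit, Hspd, Hspe1, Hsph, Hsp90, Dnaja, Dnajb, Dnajc or Cct2 to Cct8, together with Hsf1, Hsf2 and Tcp1. The rule gave 81 genes on 104 probe sets, out of 19938 genes on 21789 single-symbol probe sets, and the brightest probe set stands for each gene. Pseudogenes were to be left out by the ending of the symbol, and no matching symbol had such an ending. Probe sets of copies listed under the parent gene's symbol could therefore remain. Hsf1, Hsp90ab1 and Hspa1b were not analysed here.

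Chaperones help other proteins to fold, to assemble and to be cleared. Hsp70 proteins bind unfolded stretches of a client in a cycle that DnaJ proteins start and that nucleotide exchange factors of the Hsp110 class reset. Hsp90 proteins finish the folding of kinases and receptors, small heat shock proteins hold unfolded clients, and chaperonins enclose them in a ring. Heat shock factors are the transcription factors that bind heat shock elements in the promoters of many of these genes. In the mouse, loss of Hsf2 disturbs meiosis and female fertility, and a grown oocyte depends on stored transcripts because its own transcription stops.

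Mutant oocytes came from mice homozygous for a Brwd1 mutation and wildtype oocytes from mice without it, both of B6/C3H strain background. Brwd1 encodes a chromatin protein with bromodomains and WD repeats. All were arrested at the germinal vesicle stage and came from females of 2 to 6 months, 44 h after an injection of 5 IU equine chorionic gonadotropin, and each group had 3 pools of 100 oocytes with 1 array each. Fragmented cDNA for the arrays was amplified from 1 ng of RNA per pool. The labels name neither the allele nor the animals behind each pool, so p-values measure the spread between these pools, which may be technical.

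Brwd1 had levels of 4.41, 4.56 and 4.50 in the 3 mutant pools, against 8.91, 9.08 and 8.98 in the wildtype pools, all on the log2 scale of the arrays (limma, adjusted p = 2.2e-06). All 15 oocyte markers lay above 4.48, the level that 95% of olfactory and vomeronasal receptor probe sets do not exceed, which is used here as a guide to background. Their summed linear signal was 31967 to 32574 in mutant pools and 31560 to 32230 in wildtype pools. Of 14 granulosa and cumulus markers, 8 lay above the guide, with a summed linear signal of 1085.9 to 1185.2 in mutant and 943.75 to 1088.2 in wildtype pools. Of 11 markers of blood, immune and endothelial cells, 7 lay above it and 10 had a positive difference. Their summed linear signal was 582.14 to 710.57 in mutant and 514.00 to 558.57 in wildtype pools. The macrophage gene C1qb, with the largest difference of the list, stood at 6.71, 6.92 and 7.06 against 5.74, 5.76 and 6.49. Other macrophage and leukocyte markers differed by less. C1qa was at 0.18, Cd3e at 0.18, Csf1r at 0.19, Ptprc at 0.053, Itgam at 0.033 and Cd68 at -0.070. Of these, Csf1r, Ptprc and Itgam lay under the guide. Of 9 theca and stroma markers, only 3 lay above the guide, so background signal is part of their sum. That summed linear signal was 207.87 to 216.96 in mutant and 198.54 to 201.48 in wildtype pools. The part of such cells in the results below was not tested. In pooled cells, fewer cells of a type and less RNA per cell cannot be told apart.

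No chaperone or heat shock gene passed the threshold of 0.05 on limma's Benjamini-Hochberg adjusted p, 0 of 81, beside 0.137% of all 23410 probe sets tested. At a limma unadjusted p under 0.05, 3 members were higher in the mutant, or 3.70%, where 7.30% of all tested probe sets were higher. A further 5 were lower, or 6.17%, where 7.40% of all were lower. In these values both shares lay under the background. With trend and robust settings 9.88% of members were higher, beside 6.72% of all, and with repeated quantile normalization 8.64% beside 6.61%. The higher share was 7.41% beside 5.88% with cyclic loess and 8.64% beside 8.09% with array weights. The lower share was 7.41% beside 5.66% without mutant pool 2 and 6.17% beside 5.82% without mutant pool 3. With all probe sets of the table tested it was 6.17% beside 6.07%. In the other settings and omissions of 1 array the lower share lay under the background. The side of the background on which the higher and the lower members lie thus depends on the setting. The 3 higher members were Hsf2, Dnajb14 and Dnajc25, and the 5 lower ones Hspa2, Dnajc6, Cct5, Dnajc4 and Cct7. The count of 3 became 6 without mutant pool 1, or 7.41% beside 7.92% of all. Without wildtype pool 3 it also became 6, or 7.41% beside 7.06%. The count of 5 became 3 without wildtype pool 2, or 3.70% beside 6.08%.

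The median difference of the 81 members, mutant minus wildtype, was 0.047 on the log2 scale, beside 0.010 for all tested probe sets, with 50 members positive and 31 negative, so that 61.7% were positive beside 52.8% of all tested probe sets. After median centring the member median was -0.010 and that of all tested probe sets -0.047. Every mutant array lay above every wildtype array for 7 members, or 8.64%, beside 10.1% of all tested probe sets, and below for 8 members, or 9.88%, beside 9.66%. Of the 81 members, 69 lay above the background guide, beside 14879 of the 23410 tested probe sets. Of those 69, 60.9% were positive, beside 48.3% of the tested probe sets above the guide. At or under the guide the shares were 66.7% of members and 60.5% of tested probe sets. Some of the 69 were close to the guide, such as Hspa12b at a mean of 4.58. The 12 at or under it were Hspa1l, Dnajb3, Dnajb7, Dnajb13, Dnajc22, Dnajc27, Dnajc28, Hspb3, Hspb7, Hspb8, Cct6b and Cct8l1. Among the 61 members brighter than the median tested probe set, 4.92% were higher and 6.56% lower at an unadjusted p under 0.05, beside 7.60% and 12.6% of all tested probe sets that bright.

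**Figure D1:**
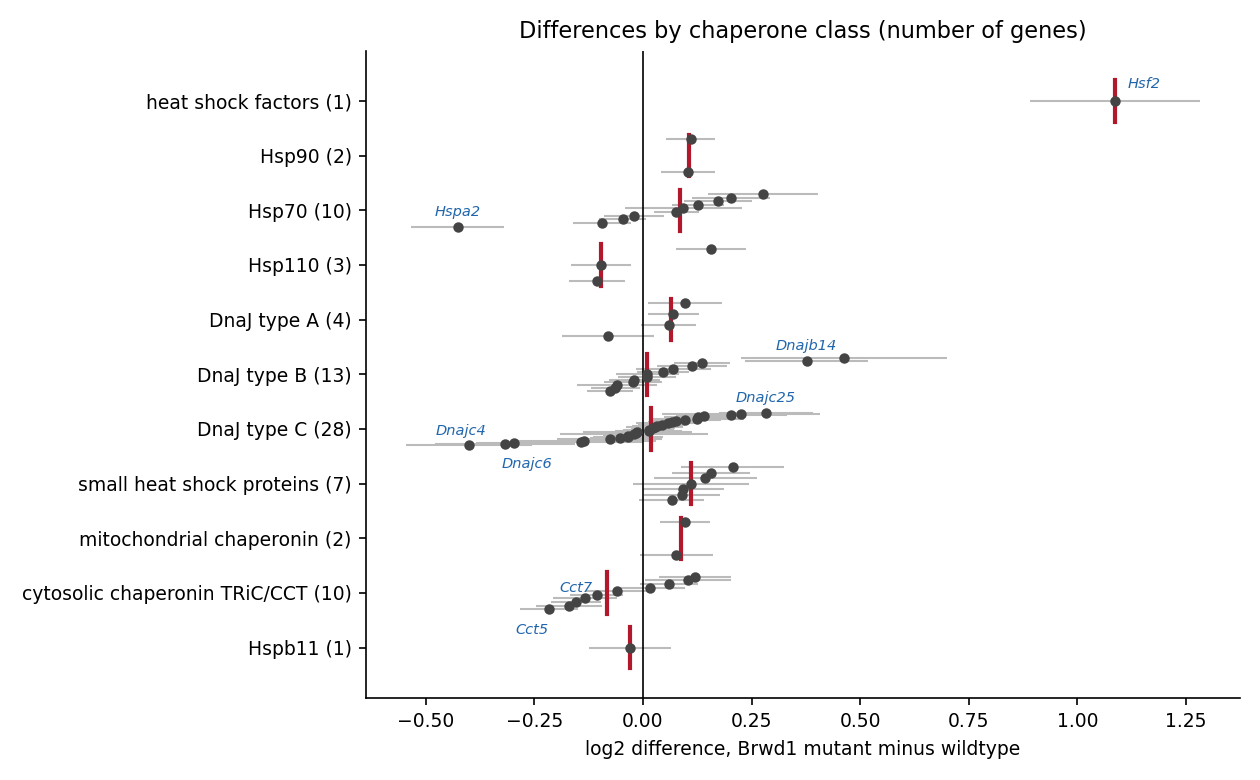
Log2 difference, mutant minus wildtype, of each of the 81 genes (points, with the limma standard error) by chaperone class, and the median of each class (red bar). Genes at an unadjusted p under 0.05 are named. Hsf2 stands at 1.09, and the other 80 genes lie between -0.43 and 0.46.

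Hsf2, the only heat shock factor gene among the members, showed the greatest difference of the 81. Its level was 6.71, 6.22 and 6.67 in mutant pools 1, 2 and 3, against 5.83, 5.25 and 5.26 in wildtype pools 1, 2 and 3. All mutant values were above all wildtype values, and the gap between the groups was 0.39. The mean was 6.53 ± 0.27 in mutant and 5.45 ± 0.33 in wildtype pools (SD, n = 3 each), a 2.12-fold higher signal, or 1.09 on the log2 scale (SE 0.196, 95% confidence interval 0.62 to 1.55). The limma adjusted p was 0.122, which does not pass, and it ran from 0.0676 to 0.290 over the other settings and omissions of 1 array. The difference stayed between 0.99 and 1.28 in the 6 fits that each left out 1 array.

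Other heat shock factors and their regulators, on a list of other pathway genes, gave smaller differences. Of 6 measured genes, 0 were at an unadjusted p under 0.05, and their median difference was 0.055, or -0.0017 after median centring. Hsf5, a heat shock factor of germ cells, was at 7.78, 7.59 and 7.88 in mutant and 7.70, 7.52 and 7.47 in wildtype pools, with overlapping groups and a difference of 0.19 (limma, adjusted p = 0.427). Hsf4, known from the lens, was at 4.80 ± 0.08 in mutant and 4.74 ± 0.05 in wildtype pools (SD, n = 3 each).

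Heat shock factors bind repeats of the unit GAA and its reverse complement TTC, set 2 bases apart. RefSeq promoter windows of build GRCm38.p6, from 250 bases before to 50 bases after a transcript start, were found for 67 of the 81 members and searched on both strands for GAANNTTC and TTCNNGAA. At least 1 window held such a pair of units in 19 of the 67 members, or 28.4%, beside 17.0% of the 27025 genes with a window. Elements of at least 3 units in a row stood in 4 members, or 5.97%, beside 0.662% of all those genes. Each 3-unit element contains the shorter motif. Members without a window, among them Hsp90aa1, Hspa8 and Hspa9, were not searched and enter none of these shares. A match describes the letters and not a bound site. The 4 members were Hspd1, Hspe1, Dnajb6 and Hsph1, shown because they hold the longest runs of units, which are in capitals with flanking bases in lower case.

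The element of Hspd1, at chr1:55088049-55088086 on the minus strand, lies 144 to 127 bases before the start. That of Hspe1 is the same stretch of DNA read on the plus strand, 89 to 72 bases before its own start, because the genes are divergent neighbours. Their run holds 4 units. The element of Dnajb6, at chr5:29735842-29735874 on the plus strand, lies 46 to 34 or 127 to 115 bases before the start, depending on the transcript. That of Hsph1, at chr5:149636287-149636310 on the minus strand, begins 16 or 37 bases after the start.
Hspd1: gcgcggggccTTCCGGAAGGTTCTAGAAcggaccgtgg
Hspe1: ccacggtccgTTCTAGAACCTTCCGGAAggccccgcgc
Dnajb6: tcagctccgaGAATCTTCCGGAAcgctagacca
Hsph1: atgctgcagaTTCTGGAAAGTTCt

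The members with these elements had small differences. The 4 with at least 3 units ran from -0.063 for Dnajb6 to 0.16 for Hsph1, with a median of 0.087. The 15 with a pair of units only had a median of 0.060, and the 48 members with windows and no match a median of 0.038. Hspa1a, the stress-inducible Hsp70, belongs to the 15 and was at 5.46, 5.39 and 5.32 in mutant and 5.41, 5.55 and 5.49 in wildtype pools. Its groups overlapped, at a difference of -0.093 (SE 0.067, 95% confidence interval -0.25 to 0.065; limma, adjusted p = 0.558). Dnajb1, the heat-inducible partner of Hsp70, is among the 48 and had a difference of 0.010 with a 95% confidence interval of -0.16 to 0.18. Hsf2 itself is also among the 48. After median centring the 3 medians were 0.030, 0.0033 and -0.018. These shares and medians are descriptions of letters and values, with no test.

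**Figure D2:**
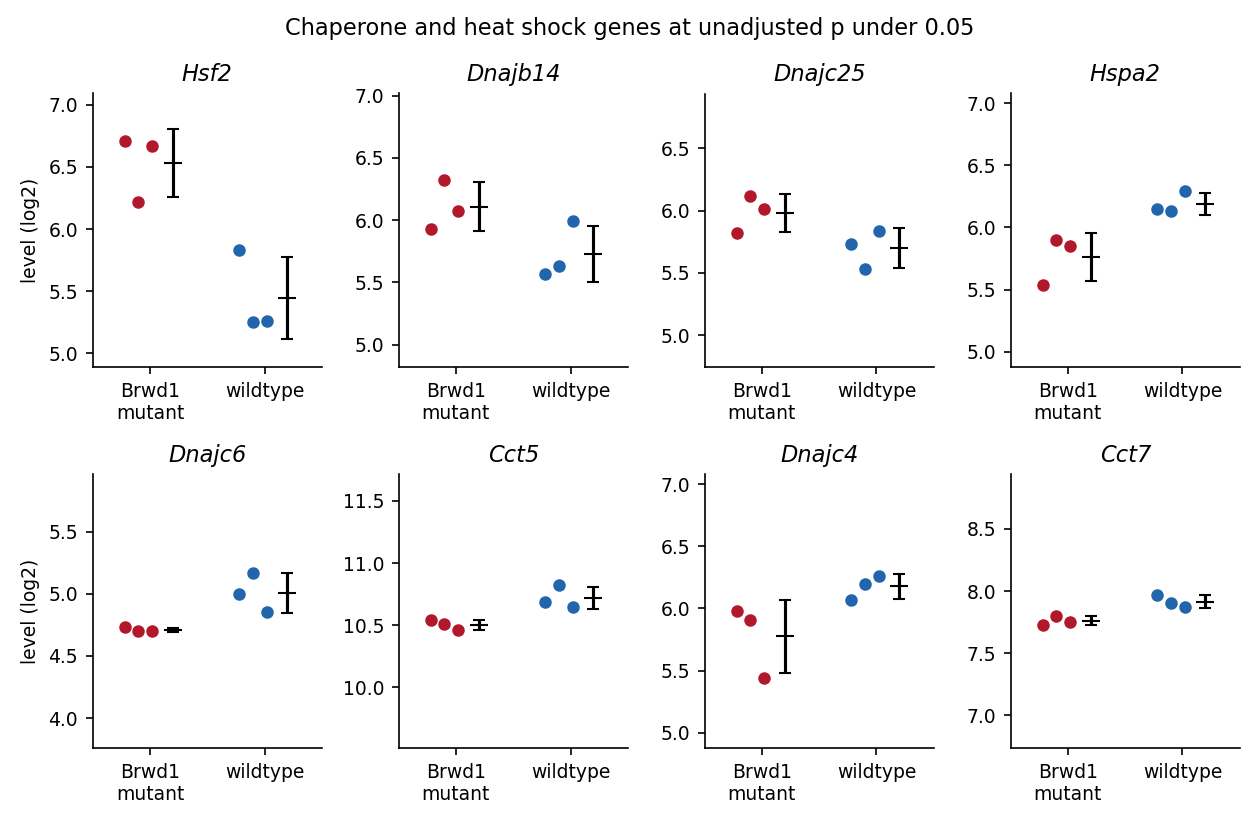
Level on the log2 scale in each array for the 8 members at an unadjusted p under 0.05 (points), with mean and SD (n = 3 per group), in Brwd1 mutant and wildtype pools. Every panel spans an equal range of log2 units. The groups separate for Hsf2, Hspa2, Dnajc6, Cct5, Dnajc4 and Cct7 and overlap for Dnajb14 and Dnajc25.

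Both Hsp90 genes had small positive differences. Hsp90aa1, the inducible cytosolic Hsp90, was at 11.75, 11.79 and 11.83 in mutant and 11.64, 11.67 and 11.73 in wildtype pools. These groups did not overlap, yet the gap between them was only 0.02, and the difference was 0.11 (SE 0.057; limma, adjusted p = 0.421). Its 2 other probe sets gave 0.11 and 0.12, also without overlap, and probe sets of 1 gene are not independent measurements. Hsp90b1, the Hsp90 of the endoplasmic reticulum, was at 10.63, 10.48 and 10.59 in mutant and 10.43, 10.47 and 10.49 in wildtype pools, where mutant 2 lay among the wildtype values (difference 0.10, limma adjusted p = 0.487). After median centring the differences were 0.053 and 0.047.

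The Hsp70 class had 10 members, with 6 positive and 4 negative differences, a median of 0.085 and 1 member, lower, at an unadjusted p under 0.05. The median was -0.020 among the Hsp70 members brighter than the median tested probe set and 0.028 after median centring. That member was Hspa2, which mouse spermatocytes need for meiosis. Its level was 5.54, 5.90 and 5.85 in mutant pools, against 6.15, 6.13 and 6.29 in wildtype pools, so every mutant value was below every wildtype value and mutant 1 was the lowest. The difference of -0.43 (SE 0.107, 95% confidence interval -0.68 to -0.17) corresponds to a 1.34-fold lower signal and did not pass (limma, adjusted p = 0.184). It ran from -0.50 to -0.32 without single arrays.

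The constitutive and organelle Hsp70 genes differed by less. Hspa8, the constitutive cytosolic form, was at 11.52, 11.55 and 11.56 in mutant and 11.45, 11.47 and 11.48 in wildtype pools. The groups were apart by 0.04, with a difference of 0.077 (SE 0.051; limma, adjusted p = 0.533). Its other probe sets gave 0.073, also without overlap, and 0.22 with overlapping groups. Hspa5, known as BiP and the main Hsp70 of the endoplasmic reticulum, was at 9.98, 9.70 and 9.96 in mutant and 9.65, 9.75 and 9.63 in wildtype pools. Mutant 1 and 3 were above all wildtype values and mutant 2 was not, at a difference of 0.20 (SE 0.090; limma, adjusted p = 0.360). Hspa9, the mitochondrial form, was at 9.78, 9.80 and 9.76 in mutant and 9.78, 9.84 and 9.86 in wildtype pools, a difference of -0.047 with overlap.

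The remaining Hsp70 members are relatives of these. Hspa12a was at 7.47, 7.37 and 7.55 in mutant and 7.06, 7.03 and 7.47 in wildtype pools, where wildtype 3 fell among the mutant values (difference 0.28; limma, adjusted p = 0.372). Without wildtype pool 3 its difference was 0.42 (limma, adjusted p = 0.123). Hspa12b, which marks endothelial cells in the mouse, was at 4.78, 4.69 and 4.52 in mutant and 4.49, 4.45 and 4.53 in wildtype pools, just above the background guide, and here mutant 3 overlapped the wildtype values (difference 0.17). The blood, immune and endothelial marker sum given above was higher in mutant pools, and highest in mutant pool 3, where Hspa12b was at 4.52. Of its endothelial markers, Pecam1 was at 7.83, 7.62 and 8.08 in mutant and 7.57, 7.74 and 7.68 in wildtype pools, with overlap. Tek, Cdh5 and Kdr differed by 0.11, 0.097 and 0.073, also with overlap. The part of endothelial cells was not tested. Hspa1l, a testis form, was under the background guide, and Hspa13 and Hspa14, a microsomal and a ribosome-associated relative, were at 0.093 and -0.020.

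Hsp110 genes did not share a direction. Hsph1 was at 9.77, 9.76 and 9.87 in mutant and 9.60, 9.54 and 9.79 in wildtype pools, where wildtype 3 overlapped the mutant values, at a difference of 0.16 (SE 0.081; limma, adjusted p = 0.420). Hspa4 was at 9.28, 9.18 and 9.32 in mutant and 9.35, 9.43 and 9.32 in wildtype pools, a difference of -0.11 (limma, adjusted p = 0.488). Hspa4l was at 8.57, 8.47 and 8.47 in mutant and 8.56, 8.54 and 8.70 in wildtype pools, a difference of -0.097 (limma, adjusted p = 0.554). The 3 signs held in each of the 6 omissions of an array and in all 3 renormalizations.

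**Figure D3:**
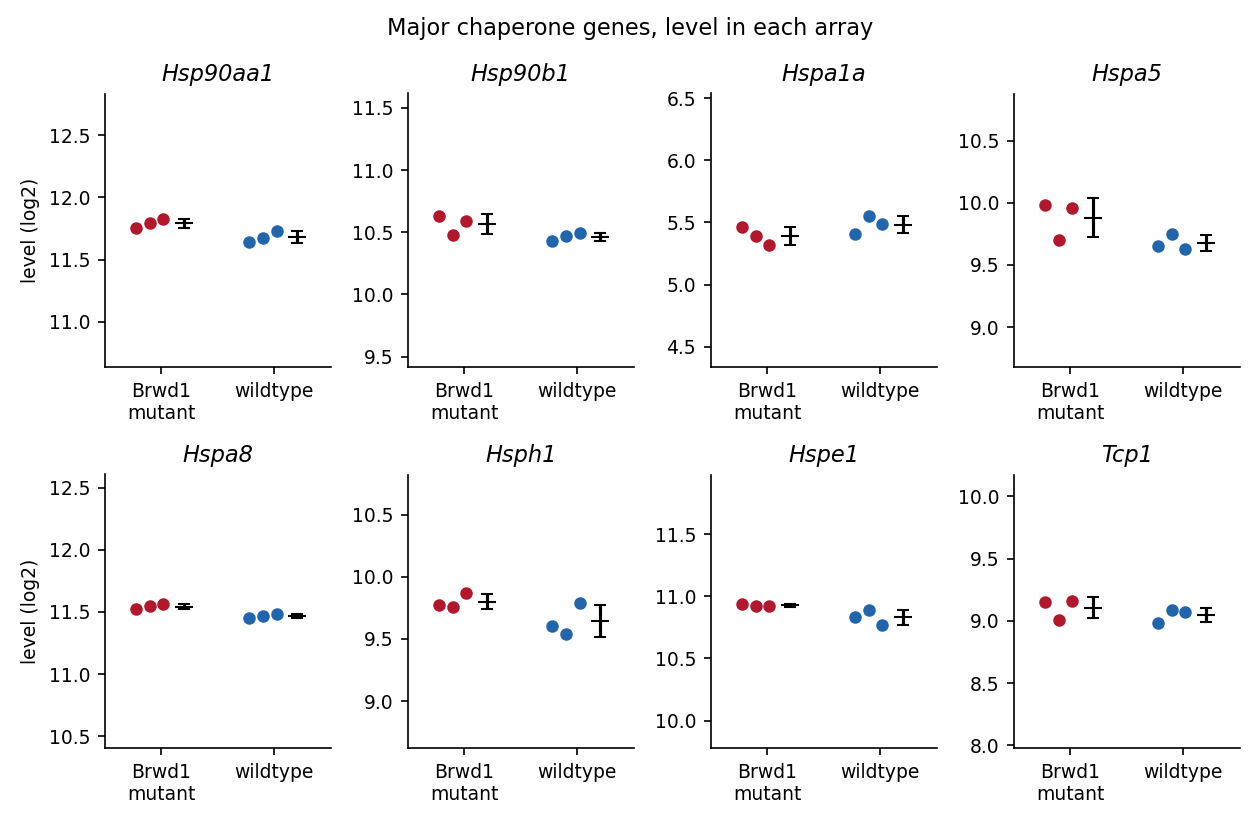
Level on the log2 scale in each array for 8 major chaperone genes (points), with mean and SD (n = 3 per group), in Brwd1 mutant and wildtype pools. Every panel spans an equal range of log2 units. The widest difference between group means is 0.20, for Hspa5, and the groups are apart for Hsp90aa1, Hspa8 and Hspe1.

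DnaJ genes, the co-chaperones that deliver clients to Hsp70, were the largest group with 45 members, of which 27 were positive and 18 negative, with a median of 0.023. At an unadjusted p under 0.05, 2 were higher and 2 lower, or 4.44% each, beside 7.30% and 7.40% of all tested probe sets. The median was -0.033 after median centring. Type A, close to the bacterial DnaJ in domain layout, had 4 members between -0.080 and 0.097. Dnaja2 was at 10.59, 10.55 and 10.56 in mutant and 10.42, 10.54 and 10.53 in wildtype pools, apart by only 0.01. Dnaja1 was at 10.86, 10.93 and 10.99 in mutant and 10.80, 10.91 and 10.89 in wildtype pools, and Dnaja4 at 8.20, 8.07 and 8.01 in mutant and 8.04, 8.09 and 7.86 in wildtype pools, both with overlap.

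Type B had 13 members and a median of 0.010, which was -0.047 after median centring and -0.0017 without mutant pool 3. Dnajb14, an anchored DnaJ protein of the endoplasmic reticulum membrane, was at 5.93, 6.32 and 6.07 in mutant and 5.57, 5.63 and 5.99 in wildtype pools. Wildtype 3 lay above mutant 1, and the difference was 0.38 (SE 0.142; limma, adjusted p = 0.293). Dnajb9, a co-chaperone of Hspa5 known as ERdj4, had wide spread in both groups, at 7.11, 6.41 and 6.99 in mutant and 6.67, 5.96 and 6.49 in wildtype pools (difference 0.46, SE 0.237; limma, adjusted p = 0.418). Pool 2 was the lowest in both groups. The Dnajb9 difference ran from 0.26 to 0.68 without single arrays. With the pool number as a block, its limma adjusted p was 0.171. Dnajb8, a testis form, was at 4.99, 5.00 and 4.86 in mutant and 4.82, 4.86 and 4.76 in wildtype pools, which touch at 4.86. Dnajb4 was at 10.78, 10.73 and 10.71 in mutant and 10.70, 10.76 and 10.82 in wildtype pools, a difference of -0.020, and Dnajb6, which suppresses aggregation, was at -0.063.

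Type C, defined by the J domain alone and the most varied in role, had 28 members with a median of 0.018, which was -0.038 after median centring. Dnajc6, the auxilin that helps Hsp70 to strip clathrin from vesicles, was at 4.73, 4.70 and 4.70 in mutant and 5.00, 5.17 and 4.85 in wildtype pools. All mutant values were below all wildtype values, at a difference of -0.30 (SE 0.087; limma, adjusted p = 0.222), and both means, 4.71 and 5.01, were close to the background guide of 4.48. Dnajc4 was at 5.98, 5.91 and 5.44 in mutant and 6.07, 6.20 and 6.26 in wildtype pools, apart by 0.09, with mutant 3 far below the others. Its difference was -0.40 (SE 0.145; limma, adjusted p = 0.284) and -0.23 without mutant pool 3. Dnajc25 was at 5.82, 6.12 and 6.01 in mutant and 5.73, 5.53 and 5.84 in wildtype pools, where mutant 1 lay just under wildtype 3 (difference 0.28; limma, adjusted p = 0.301).

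The further type C genes, with other roles in the cell, ran from -0.32 for Dnajc5g to 0.23 for Dnajc24. Dnajc28, at 0.20, was under the background guide. Dnajc2, a ribosome-bound chaperone, was at 9.30, 9.26 and 9.36 in mutant and 9.09, 9.18 and 9.23 in wildtype pools, apart by 0.03 (difference 0.14; limma, adjusted p = 0.368). Dnajc8, a splicing-related protein, was at 11.00, 11.03 and 11.12 in mutant and 11.00, 11.06 and 11.05 in wildtype pools. Dnajc5g, a relative of the synaptic vesicle protein Dnajc5, was at 6.71, 6.84 and 6.20 in mutant and 6.90, 6.98 and 6.82 in wildtype pools, where mutant 2 overlapped and mutant 3 was far below (difference -0.32, or -0.13 without mutant pool 3). Dnajc13, which acts on endosomes, had 15 probe sets with differences from -0.12 to 0.097, of which 8 were positive. Dnajc21, of ribosome biogenesis, and Dnajc9, a histone co-chaperone, were at 0.023 and 0.077, and Dnajc19 of the mitochondrial import motor was at 0.043.

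The 7 small heat shock proteins all had positive differences, beside 52.8% of all tested probe sets, from 0.067 for Hspb6 to 0.21 for Hspb9, with a median of 0.11, and 0 were at an unadjusted p under 0.05. Leaving out 1 array took Hspb6 as low as 0.017 and Hspb2 to 0. Only 4 of the 7 lay above the background guide. Of all tested probe sets at or under the guide, 60.5% were positive, with a median of 0.023, and of those above it 48.3%. The class median was 0.053 after median centring, 0.087 after cyclic loess and 0.095 after repeated quantile normalization. Hspb1, which protects actin filaments, was at 6.46, 6.86 and 6.97 in mutant and 6.68, 6.56 and 6.72 in wildtype pools, where mutant 1 was the lowest value of all (difference 0.11; limma, adjusted p = 0.739), and without 1 array it ran from 0.0067 to 0.26. A second probe set of Hspb1 gave 0.21. Hspb9, a testis form, was at 5.36, 5.71 and 5.27 in mutant and 5.17, 5.31 and 5.24 in wildtype pools, with overlap, and its difference was 0.075 without mutant pool 2. Hspb3, of muscle, was at 4.37, 4.27 and 4.32 in mutant and 4.34, 4.13 and 4.02 in wildtype pools, with a difference of 0.16, or 0.085 without wildtype pool 3 and 0.24 without wildtype pool 1. Hspb8, a partner of Bag3, was at 4.31, 4.29 and 4.24 in mutant and 4.08, 4.40 and 3.93 in wildtype pools, with a difference of 0.14, or 0.040 without wildtype pool 3 and 0.28 without wildtype pool 2. Both were under the guide, with overlapping groups. Hspb11, named with this family but a component of intraflagellar transport, was at 7.73, 7.96 and 7.84 in mutant and 7.86, 7.74 and 8.02 in wildtype pools (difference -0.030).

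The mitochondrial chaperonin genes had like differences. Hspe1, the lid of the ring, was at 10.94, 10.92 and 10.92 in mutant and 10.83, 10.89 and 10.77 in wildtype pools, apart by 0.03 (difference 0.097, SE 0.057; limma, adjusted p = 0.478). Hspd1, the ring itself, was at 10.14, 9.98 and 10.14 in mutant and 9.87, 10.06 and 10.10 in wildtype pools, with overlap (difference 0.077; limma, adjusted p = 0.711). Without 1 array Hspd1 ran from 0.0067 to 0.13. Second probe sets gave 0.12 for Hspe1 and 0.060 for Hspd1, and processed copies of such genes elsewhere in the genome could share probes.

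The cytosolic chaperonin TRiC/CCT, which folds actin and tubulin, had the lowest median of the classes with at least 4 members, -0.083, with 6 of 10 genes negative and 4 positive. Every mutant array was below every wildtype array for 4 of the 10, beside 9.66% of all tested probe sets, 15.4% of those above the median level and 12.8% of those above the background guide. Of these 4, Cct8l1 was under the background guide. At an unadjusted p under 0.05, 2 of the 10 were lower, beside 7.40% of all tested probe sets and 12.6% of those above the median level. Cct5 was at 10.54, 10.51 and 10.46 in mutant and 10.69, 10.82 and 10.65 in wildtype pools, a difference of -0.22 (SE 0.066, 95% confidence interval -0.37 to -0.060; limma, adjusted p = 0.227). Cct7 was at 7.73, 7.80 and 7.75 in mutant and 7.97, 7.90 and 7.87 in wildtype pools, a difference of -0.15 (SE 0.057; limma, adjusted p = 0.291). These groups were apart by 0.11 and 0.07.

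Not every subunit of the ring followed Cct5 and Cct7. Cct4 was at 7.72, 7.77 and 7.96 in mutant and 7.96, 7.98 and 8.02 in wildtype pools, which touch at 7.96 (difference -0.17; limma, adjusted p = 0.366), and Cct2 was at 9.86, 9.76 and 9.91 in mutant and 9.96, 9.95 and 9.94 in wildtype pools, apart by 0.03 (difference -0.11). Tcp1, the subunit that gave the complex its name, was at 9.15, 9.01 and 9.16 in mutant and 8.98, 9.09 and 9.07 in wildtype pools, with overlap (difference 0.060). Cct8 was at -0.060, Cct3 at 0.017 and Cct6a at 0.12. The mean level of Cct6a was 5.14, under the median tested probe set at 5.27. Cct6b, a testis form of Cct6a, and Cct8l1 were under the background guide. The class median was -0.14 after median centring, -0.050 after cyclic loess and -0.047 after repeated quantile normalization, and it was -0.042 without mutant pool 2.

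Sorted by compartment, a grouping made after the values were seen, 9 of 14 members that work in or on the endoplasmic reticulum were positive. This was 64.3%, beside 52.8% of all tested probe sets and 48.3% of those above the background guide, where all 14 lay. Their median was 0.082, or 0.025 after median centring. Besides Hspa5, Hsp90b1, Dnajb9, Dnajb14 and Dnajc25, the positive ones were Dnajc10, a reductase of misfolded proteins, at 0.097, Dnajc1 at 0.067, Dnajb12 at 0.070 and Hspa13. The 5 negative members were Dnajb11, a co-chaperone of Hspa5, at -0.077, Dnajc3, which restrains the stress kinase Eif2ak3, at -0.053, Dnajc14 at -0.017, Dnajc16 at -0.14 and Dnajc18 at -0.077. The other folding and stress genes of this compartment, 18 on the list of other pathway genes, had a median of 0.052, which was -0.0050 after median centring. At an unadjusted p under 0.05, 5.56% were higher (1 gene) and 11.1% lower (2 genes), beside 7.30% and 7.40% of all tested probe sets. The higher one was Eif2ak3, named after its value was seen, at a difference of 0.39 (limma, adjusted p = 0.272). Pdia4, a disulfide isomerase, was at 8.76, 8.78 and 8.54 in mutant and 8.96, 9.02 and 8.96 in wildtype pools, without overlap (difference -0.29; limma, adjusted p = 0.206). Pdia6, a relative, was at 8.66, 8.52 and 8.61 in mutant and 9.48, 9.40 and 8.69 in wildtype pools, where wildtype 3 stood near the mutant values (difference -0.59; limma, adjusted p = 0.262).

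Among partners of the members, 0 of 16 exchange factors and adaptors of Hsp70 were at an unadjusted p under 0.05, with a median of -0.047. The smallest p-values there belonged to Bag4, at 8.81, 8.88 and 8.78 in mutant and 9.04, 8.97 and 8.88 in wildtype pools, and Stub1, a ubiquitin ligase that binds Hsp70, at a difference of -0.23. Of 15 genes for Hsp90 co-chaperones and the mitochondrial Hsp90 Trap1, with a median of -0.083, 6.67% were higher (1 gene) and 13.3% lower (2 genes) at an unadjusted p under 0.05, beside 7.30% and 7.40% of all tested probe sets. Ahsa2, which belongs to the activators of the Hsp90 ATPase, was at 8.29, 8.25 and 8.10 in mutant and 8.53, 8.38 and 8.47 in wildtype pools, without overlap (difference -0.25; limma, adjusted p = 0.226). Unc45a, a myosin chaperone that binds Hsp90, was at 4.56, 4.63 and 4.85 in mutant and 4.40, 4.41 and 4.48 in wildtype pools (difference 0.25; limma, adjusted p = 0.267), near the background guide. Of 10 prefoldin and chaperonin helpers, which pass clients to TRiC/CCT, 0 were at an unadjusted p under 0.05, with a median of -0.020, or 0.0068 after cyclic loess. Their smallest p-values belonged to Pfdn1, at 9.89, 9.91 and 10.04 in mutant and 10.10, 10.07 and 10.10 in wildtype pools, without overlap, and to Pfdn5, at a difference of -0.12. In the 4 further small heat shock and disaggregase genes, 0 were at an unadjusted p under 0.05, with Clpb, a mitochondrial disaggregase, at -0.13, Odf1, a sperm tail protein, at 0.11 and a median of 0.013, or -0.043 after median centring. None of the genes on these lists passed the adjusted threshold.

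**Figure D4:**
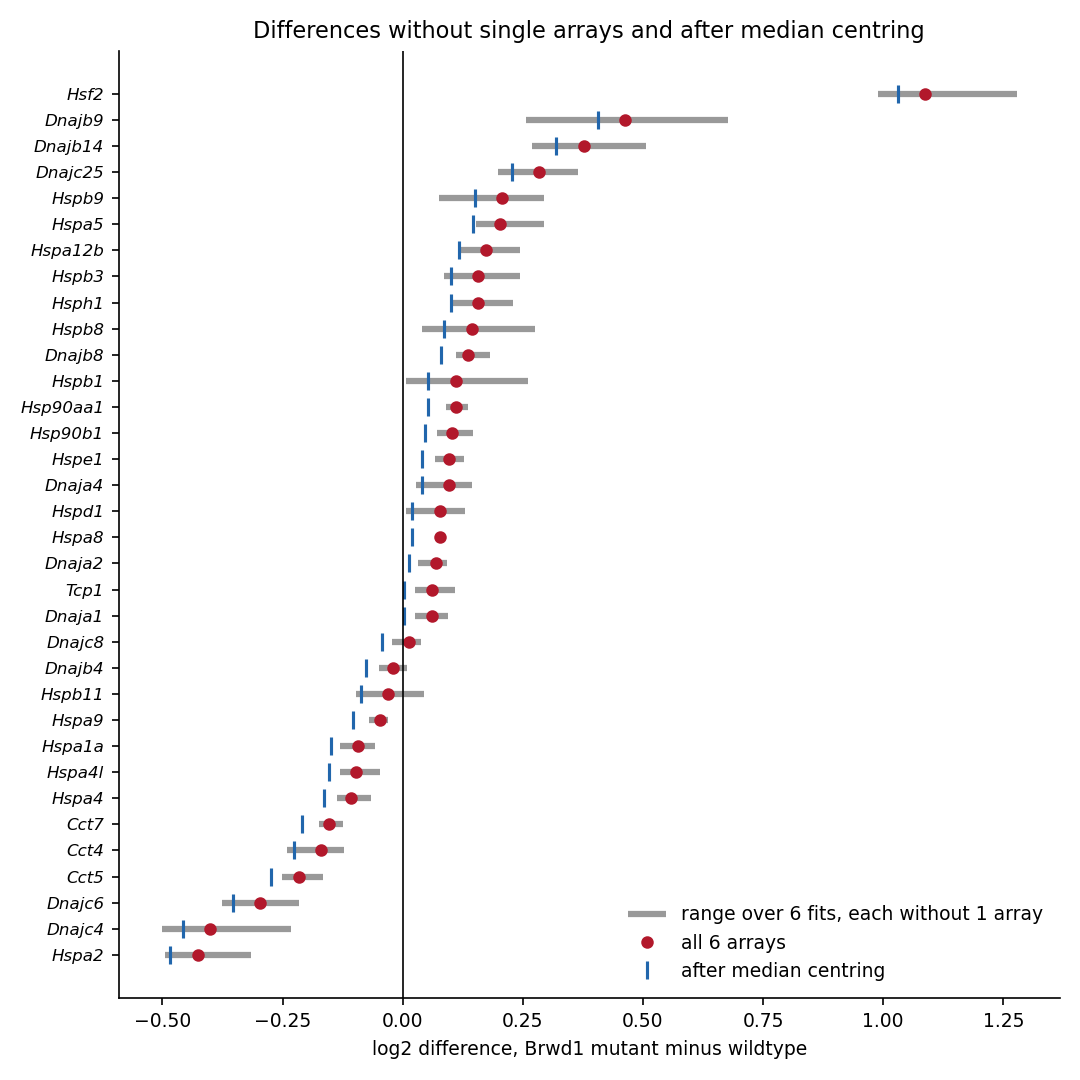
Log2 difference, mutant minus wildtype, of 34 members chosen by rule, with all 6 arrays (red point), its range over the 6 fits that each leave out 1 array (grey bar) and its value after median centring (blue tick). Hsf2 stays between 0.99 and 1.28, and Dnajb4, Dnajc8 and Hspb11 cross 0.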

How the data were processed

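RNA of pooled oocytes was amplified and each of 6 pools hybridised to an Affymetrix mouse Gene ST array in 1 colour, per the labels' protocols. The deposited values are log2 levels with 2 decimals, made by the authors with Affymetrix Expression Console 1.1 and RMA, per the submitters' processing notes. RMA brings the distributions of the arrays together, so a change in total RNA per oocyte cannot be seen in these values. No build for the probe sets was stated in the labels or headers, so no probe set position is printed. The number of arrays limits the precision.

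Genes were named from the platform annotation, which gave 1 symbol for 21789 of 35556 probe sets. All 81 member gene identifiers were found in the RefSeq table of GRCm38.p6, with the same symbols. Mutant minus wildtype was fitted with limma 3.58.1 in R 4.3.3 (lmFit, eBayes, two-sided) over the 23410 probe sets with at least 1 symbol, without covariates, and p-values were adjusted over all of them by the Benjamini-Hochberg method at 0.05. Standard errors and intervals are limma's. The fit was tested on simulated data first.

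The members and lists were chosen with earlier results of these data known. By rule, pool values are given for the main chaperones, the brightest gene of each class and the 3 smallest p-values of each class. In each pathway list the 2 smallest p-values were named, and other members, such as Hspa12a, Dnajc2, Dnajc5g and Cct2, after their values were seen. Alternatives were array weights, trend and robust settings, 3 renormalizations, a level filter, all probe sets, the mean of a gene's probe sets, a replicate block and leaving out each array. Samples fall into 2 clusters by genotype, so the correlation of members with Hsf2 was not computed. Wildtype pool 3 stood apart from wildtype pools 1 and 2 on the second principal component of the arrays, at -22.59 against 9.67 and 6.36. Its array weight, 0.741, was the lowest of the 6.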

Additional observations from a re-analysis of the deposited data

How the results depend on the processing

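No member passed the adjusted threshold in any of the 15 alternatives, where limma's smallest adjusted p among the members was 0.0676, for Hsf2, with trend and robust settings, against 0.122 in the setting reported. Same-numbered pools did not deviate together over all tested probe sets (r = -0.031 to 0.036), which cannot exclude pairing for single genes. With the replicate block 0 members passed too. At an unadjusted p under 0.05, 4 members were then higher and 5 lower. These were 4.94% and 6.17%, beside 6.74% and 7.25% of all tested probe sets. The number higher at an unadjusted p under 0.05, 3 as reported, was 7 with array weights (all tested probe sets 8.09%) and 6 after cyclic loess (5.88%). It was 8 with trend and robust settings (6.72%), 7 after repeated quantile normalization (6.61%) and 2 to 6 without 1 array (5.40% to 7.92%). The number lower, 5 as reported, was 3 to 6 without 1 array (all tested probe sets 5.66% to 7.69%) and 7 after median centring (12.2%). The cause was not tested. The median of the members ran from 0.030 to 0.047 without 1 array. Dnajb4 changed sign to 0.010 after cyclic loess and to 0.010 without wildtype pool 3 (range -0.050 to 0.010 without 1 array). Dnajc8 did so to -0.043 after median centring, -0.022 without mutant pool 3 and -0.0050 without wildtype pool 1 (range -0.022 to 0.038). Hspb11 did so to 0.026 after repeated quantile normalization, 0.027 without mutant pool 1 and 0.043 without wildtype pool 3 (range -0.097 to 0.043). Median centring turned the sign of 11 of the 81 members in all, and the median level filter kept 61 of them, where the Hsp70 median became -0.020. Members at or under the background guide can show no reliable size.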
